A study of Arabidopsis thaliana with 4 samples.

Results

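The genes described here are 10 members of the B-box family of Arabidopsis thaliana, chosen by locus name from the 34133 loci of the deposited tables. They are CO (AT5G15840), COL1 (AT5G15850), COL2 (AT3G02380), COL4 (AT5G24930) and COL5 (AT5G57660), whose proteins carry B-boxes and a CCT domain, and BBX19 (AT4G38960), BBX21 (AT1G75540), BBX22 (AT1G78600), BBX24 (AT1G06040) and BBX25 (AT2G31380), whose proteins carry B-boxes and no CCT domain. All 10 loci were found in the files. The study concerns biomass heterosis, in which a hybrid outgrows its parents. First leaves were taken at 14 days from plants on Murashige and Skoog medium that held 1% sucrose. The inbred line Ak-1 gave 2 libraries and the hybrid Col-0xAk-1 another 2, and the labels name no treatment or transgene. The inbred line is Ak-1 in titles and strain labels, Aa-0 in the genotype labels and Ak-0 in the series text; it is called Ak-1 here. Col-0, the other parent of the hybrid, was not analysed here. Whether a difference from Ak-1 also lies between the parents was therefore not tested. No label says whether replicates came from separate plants, or at what time of day leaves were taken, so p-values reflect the spread of these libraries alone, which may be technical.

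B-box proteins are zinc-binding transcription regulators that connect light to gene expression. In the light, photoreceptors restrain the COP1-SPA ubiquitin ligase, which otherwise marks HY5, CO and several B-box proteins for breakdown. CO activates the florigen gene FT in phloem companion cells in long days, BBX21 and BBX22 act with HY5 to promote light-grown development, and BBX24 and BBX25 oppose HY5. Transcripts of several of these genes cycle with the time of day.

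Levels are given in FPKM, mapped fragments scaled by transcript length and by library size, as the authors normalized them. Values above 0 were listed for 21031 to 21752 loci a library. The total depth was not computed. Steps between the lowest values put the relative depth at 1.11 in Ak-1 replicate 2, 1.32 in hybrid replicate 1 and 1.17 in hybrid replicate 2, against Ak-1 replicate 1. The hybrid libraries stood apart from each other: 74 tested loci differed by over 4-fold between them on the log2(FPKM + 1) scale and 0 between the Ak-1 libraries. FLC, the floral repressor that acts against FT and SOC1, had 0.64 FPKM in hybrid replicate 1 and 89.64 FPKM in hybrid replicate 2, against 2.52 and 3.94 FPKM in Ak-1. Hybrid means below are therefore given with each library's own value. Of the leaf mesophyll markers, RBCS3B, BCA1 and RCA had 4538 to 13009 FPKM in every library. RBCS1A had 20052 and 20897 FPKM in Ak-1 but was listed at 0 in each hybrid library. Whether a listed 0, here or below, reflects a lack of transcript was not tested. The 9 shoot apex and root markers were at most 0.11 FPKM, with CLV3 and WUS at 0 throughout, and 4 of 5 flower markers were at most 0.20 FPKM. The fifth, SEP3, had 2.33 and 1.84 FPKM in Ak-1 against 0.77 and 0.61 FPKM in the hybrid.

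None of the 9 members that could be tested passed the test between hybrid and Ak-1. The test was limma on log2(FPKM + 1) across the 15905 loci whose mean over the libraries reached 1 FPKM, with calls at a Benjamini-Hochberg adjusted p under 0.05. Of those loci 4.13% were called, 1.62% higher and 2.51% lower in the hybrid. With an unadjusted p under 0.05 there were 3 of 9 members (COL2, BBX25 and COL1), against 20.2% of all tested loci. The values of the groups did not overlap for 8 of the 9 tested members, 4 higher and 4 lower in the hybrid, against 53.1% of all tested loci (20.5% higher and 32.6% lower). The median log2 difference was 0.16 over the 9 members and −0.06 over all tested loci. The median absolute difference was 0.37 over the members and 0.21 over all tested loci. These are bulk leaf samples, in which fewer cells of a type and less RNA per cell cannot be told apart.

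**Figure D1:**
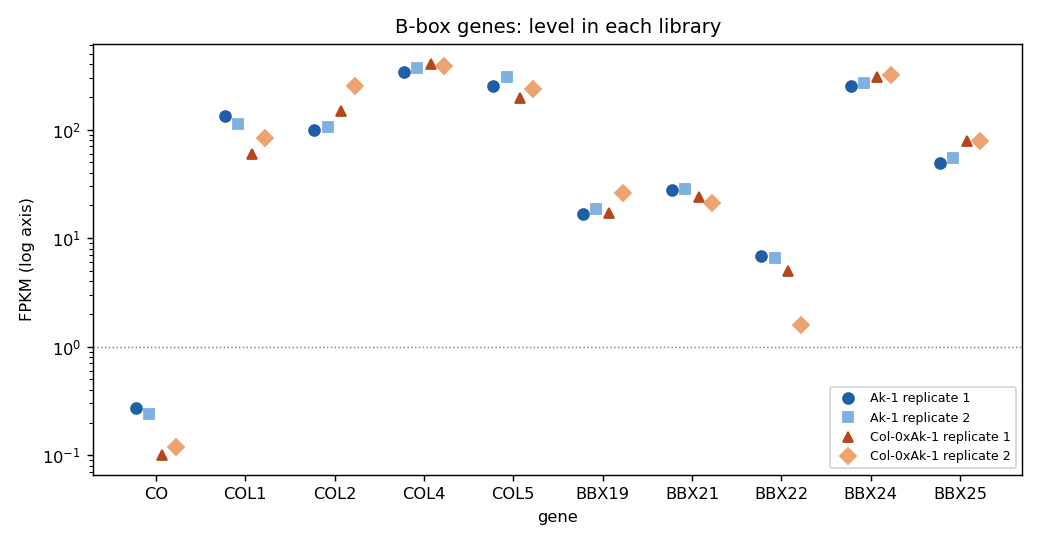
FPKM of the 10 B-box genes in each of the 4 libraries, on a log axis, with a dotted line at 1 FPKM. COL4 was highest in every library at 342.61 to 405.78 FPKM, and CO, at 0.10 to 0.27 FPKM, lay below the line.

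By level per length, the members spanned 0.10 to 405.78 FPKM. In Ak-1 the order from the highest mean was COL4, COL5, BBX24, COL1, COL2, BBX25, BBX21, BBX19, BBX22 and CO. The ranges of COL5 and BBX24 overlapped there, and no other neighbours did. In the hybrid the order was COL4, BBX24, COL5, COL2, BBX25, COL1, BBX21, BBX19, BBX22 and CO. Ranges overlapped there between COL5 and COL2, between BBX25 and COL1, and between BBX21 and BBX19. COL1 stood above COL2 in Ak-1 and below it in the hybrid.

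CO itself, the flowering regulator that gives the COL genes their name, was close to undetected in these leaves. It had 0.27 and 0.24 FPKM in Ak-1 against 0.10 and 0.12 FPKM in the hybrid. A single fragment on a transcript of 1 kilobase was worth 0.0474 to 0.0625 FPKM, so the values of CO stood at 2.11 to 4.32 times that unit. The reference transcript of CO is longer than 1 kilobase, so its fragment counts are above these multiples, though still few. In the reference annotation TAIR10.1 the locus AT5G15843, for which no FPKM is listed, overlaps 67.3% of CO. Of the 50-base stretches of the CO transcript, 15.7% also lie in a transcript of AT5G15843 when both strands are read. The part of this overlap in the CO values was not tested. The hybrid values were below both Ak-1 values, but CO did not reach the mean of 1 FPKM needed for the test. With no filter on low values the limma adjusted p for CO was 0.189. FT, its main target, had 0.57 and 0.51 FPKM in Ak-1 against 0.91 and 0.12 FPKM in the hybrid, so its groups overlapped, and it was not tested either.

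COL1 and COL2, the closest relatives of CO, differed between the groups in opposite directions without passing the test. COL1, which lies next to CO on chromosome 5 and alters the period of the circadian clock when overexpressed, had 132.44 and 112.22 FPKM in Ak-1 against 59.45 and 83.80 FPKM in the hybrid. The hybrid mean of 71.6 ± 17.2 FPKM was 0.586 times the Ak-1 mean of 122 ± 14.3 FPKM (SD, n = 2 per group), with a log2 difference of −0.78 (SE 0.21, 95% interval −1.33 to −0.23, limma adjusted p = 0.137). COL2, on chromosome 3, had 99.95 and 104.85 FPKM in Ak-1 against 149.62 and 253.25 FPKM in the hybrid. Its hybrid mean of 201 ± 73.3 FPKM was 1.97 times the Ak-1 mean of 102 ± 3.46 FPKM, with a log2 difference of 0.92 (SE 0.27, 95% interval 0.23 to 1.61, limma adjusted p = 0.152). Hybrid replicate 2 held the highest COL2 value by a wide margin. Without hybrid replicate 1, when a single hybrid library is set against the Ak-1 pair and that pair alone gives the spread, the limma adjusted p of COL2 was 0.0250. Without hybrid replicate 2 its log2 difference was 0.54.

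Because they are values of the same library, the ratio of COL2 to COL1 does not depend on scaling between libraries. It was 0.755 and 0.934 in the Ak-1 libraries and 2.52 and 3.02 in the hybrid libraries. Both hybrid ratios exceeded both Ak-1 ratios, and the difference in the log2 ratio was 1.72, or 3.28-fold. The exact two-sided permutation test over 4 libraries gave p = 0.333, which is the smallest value that 2 libraries against 2 can give. The ratio was computed after the values of both genes had been seen.

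The reads of COL1 cannot be assigned to a strand, and the part of this in its value was not tested. In the reference annotation TAIR10.1 the long non-coding RNA locus AT5G15845 runs along the opposite strand over 100% of COL1, and the library kit does not mark strand. AT5G15845, named here after its values were seen, was listed at 0.22 and 0.15 FPKM in Ak-1 against 14.06 and 16.77 FPKM in the hybrid, a log2 difference of 3.79 (SE 0.16, limma adjusted p = 0.00210). Of the 50-base stretches of the COL1 transcript, 97.2% also lie in a transcript of AT5G15845 when both strands are read, and 0% lie in another member. When FPKM were multiplied by the spliced length in kilobases and the COL1 and AT5G15845 values were added, the sums were 226 and 191 in Ak-1 against 146 and 196 in the hybrid. These sums overlapped between the groups. Put in place of COL1 in the same fit, the sum had a log2 difference of −0.29 (95% interval −0.80 to 0.22, limma adjusted p = 0.491). The ratio of COL2 to this sum, per kilobase of COL1, was 0.752 and 0.932 in Ak-1 against 1.74 and 2.19 in the hybrid, still apart. The spliced transcript of AT5G15845 is longer than that of COL1, and the sums count all of it, including what lies outside COL1. The overlap of the sums may therefore not hold for the shared part, which was not summed alone. The lengths are those of the longest TAIR10.1 transcripts, which may differ from the models the authors used.

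**Figure D2:**
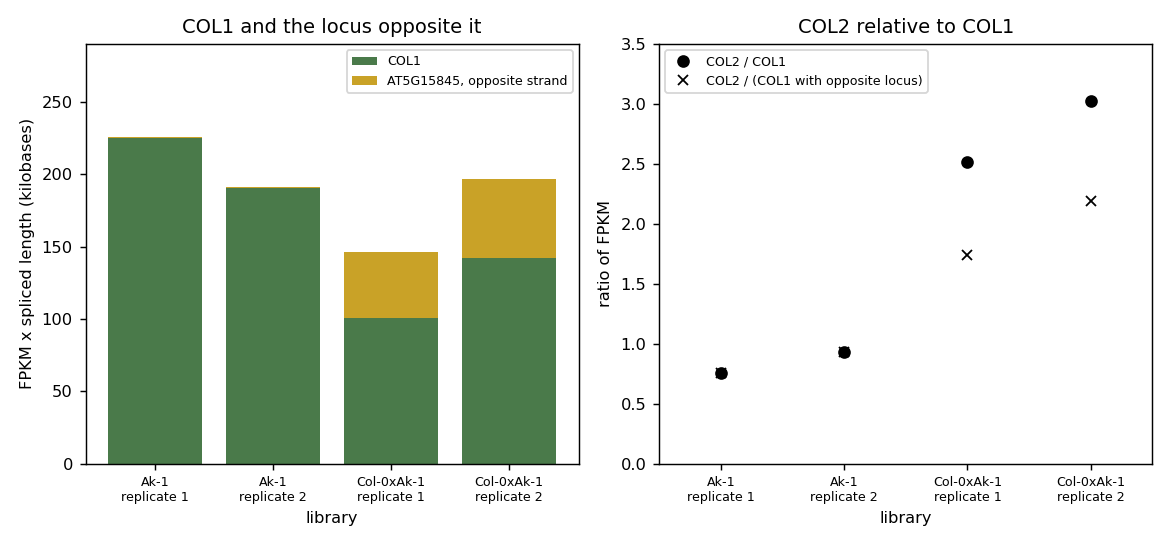
Left, COL1 and the locus AT5G15845 on its opposite strand, as FPKM times spliced length in kilobases, stacked for each library. AT5G15845, counted over its whole spliced length, adds 45.4 and 54.1 to the hybrid bars and at most 0.710 to the Ak-1 bars. Right, the ratio of COL2 to COL1 FPKM in each library, alone (dots) and with the opposite locus added to COL1 (crosses).

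COL2 also has neighbours that overlap its ends, AT3G02370 over 32.1% and AT3G02390 over 28.7% of the gene. Their values were low, at 0.71 to 1.10 FPKM and at 0 to 0.29 FPKM. COL2 shares 22.2% of its 50-base stretches with those neighbours and 0% with another member.

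COL4 and COL5 were among the most abundant members and differed less between the groups. COL4, a repressor of flowering with a role in stress responses, had 342.61 and 369.99 FPKM in Ak-1 against 405.78 and 387.85 FPKM in the hybrid. The hybrid values were above both Ak-1 values, by a log2 difference of 0.16 (95% interval −0.21 to 0.52, limma adjusted p = 0.614). COL5, which advances flowering in short days when overexpressed, had 253.00 and 307.70 FPKM in Ak-1 against 195.72 and 237.42 FPKM in the hybrid. Its groups were apart in the other direction, with a log2 difference of −0.37 (95% interval −0.84 to 0.10, limma adjusted p = 0.345). COL4 was 1.35 and 1.20 times COL5 in the Ak-1 libraries and 2.07 and 1.63 times COL5 in the hybrid libraries.

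BBX21 and BBX22, which promote light-grown development together with HY5, both had lower values in the hybrid. BBX21 had 27.86 and 28.48 FPKM in Ak-1 against 23.69 and 21.13 FPKM in the hybrid, a log2 difference of −0.32 (95% interval −0.67 to 0.03, limma adjusted p = 0.283). BBX22, also named LZF1, had 6.81 and 6.61 FPKM in Ak-1 against 4.94 and 1.59 FPKM in the hybrid. The Ak-1 libraries lay close together and the hybrid libraries 3.11 times apart, and the log2 difference of −0.97 had a wide interval (SE 0.40, −1.98 to 0.03, limma adjusted p = 0.259). Without hybrid replicate 1, again with the spread of the Ak-1 pair alone, BBX22 had a log2 difference of −1.57 (limma adjusted p = 0.0226). Without hybrid replicate 2 its log2 difference was −0.38. HY5, their partner, had 8.16 and 8.11 FPKM in Ak-1 against 9.94 and 11.94 FPKM in the hybrid (limma adjusted p = 0.242).

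BBX24 and BBX25, the pair of close relatives that oppose HY5 and are also known as STO and STH, both had higher values in the hybrid. BBX24 had 253.69 and 269.35 FPKM in Ak-1 against 305.22 and 319.44 FPKM in the hybrid, a log2 difference of 0.26 (95% interval −0.10 to 0.62, limma adjusted p = 0.391). AT1G06045, for which no FPKM is listed, overlaps 20.9% of BBX24 and shares 12.7% of its 50-base stretches. BBX25 had 48.82 and 55.02 FPKM in Ak-1 against 77.83 and 77.77 FPKM in the hybrid. Its hybrid libraries were nearly equal, and its log2 difference of 0.58 (SE 0.14, 95% interval 0.22 to 0.94) came with the smallest limma adjusted p of the 9 members, 0.108. BBX25 stood at 0.192 and 0.204 of the BBX24 level in the Ak-1 libraries and at 0.255 and 0.243 in the hybrid libraries. Median-of-ratios scaling gave BBX25 a limma adjusted p of 0.0972.

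BBX19, which binds CO and keeps it from activating FT, was the member whose groups overlapped. It had 16.75 and 18.70 FPKM in Ak-1 against 17.06 and 25.97 FPKM in the hybrid, a log2 difference of 0.24 (95% interval −0.33 to 0.81, limma adjusted p = 0.620). Hybrid replicate 1 lay between the Ak-1 libraries and hybrid replicate 2 above them.

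**Figure D3:**
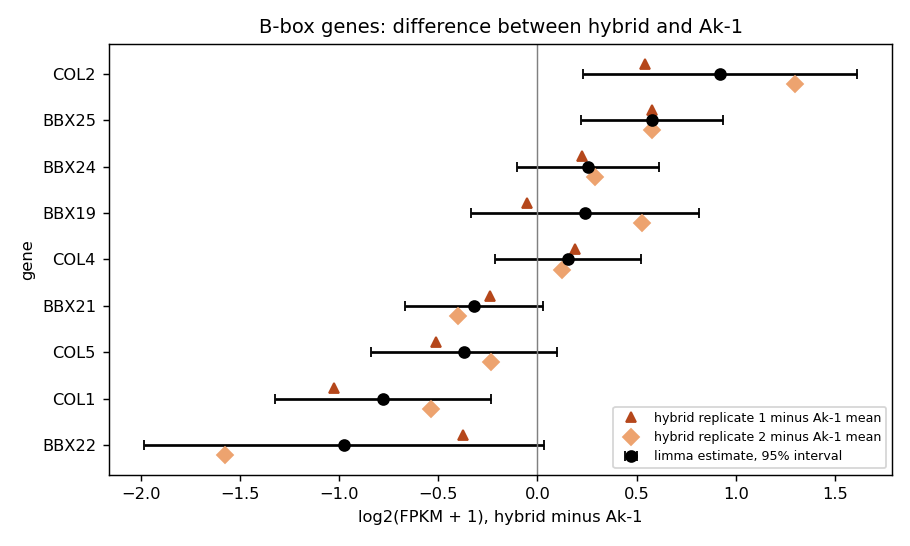
Log2(FPKM + 1) difference, hybrid minus Ak-1, of the 9 tested members, with the limma estimate and its 95% interval in black and each hybrid library minus the Ak-1 mean in colour. The intervals of COL2, BBX25 and COL1 leave out 0 before adjustment over all loci, and the hybrid libraries are farthest apart for BBX22.

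The members' replicate gaps were uneven. The median absolute log2 gap between replicates was 0.11 in Ak-1 and 0.28 in the hybrid for the 9 members, against 0.14 and 0.23 for all tested loci. In the hybrid, replicate 2 differed from replicate 1 by −1.20 for BBX22, 0.76 for COL2, 0.58 for BBX19 and 0.49 for COL1, and by −0.0011 for BBX25. BBX24 (0.07) and COL4 (−0.07) were also close.

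Some genes of the circadian clock differed between the same hybrid libraries, while others, such as TOC1, differed less. Of 10 tested clock genes none was called by limma, against 4.13% of all tested loci, and 2 had an unadjusted p under 0.05, a share close to the 20.2% of all tested loci. LHY, a morning clock gene, had 57.23 and 53.05 FPKM in Ak-1 against 72.14 and 193.90 FPKM in the hybrid, and RVE1 had 28.53 and 29.71 FPKM against 35.13 and 133.57 FPKM. PRR7, a clock repressor that follows LHY in the day, had 49.18 and 49.93 FPKM in Ak-1 against 44.46 and 20.60 FPKM in the hybrid. Hybrid replicate 2 thus held the highest LHY and RVE1 and the lowest PRR7, as it held the highest COL2 and the lowest BBX22. The evening gene TOC1, which had the smallest limma adjusted p of the list (0.155), had 2.79 and 2.80 FPKM in Ak-1 against 1.75 and 1.51 FPKM in the hybrid. LHY, RVE1 and PRR7 were picked after their values were seen, and the part of the clock genes in the members' values was not tested. The median absolute gap between the hybrid replicates was 0.60 for the clock list.

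**Figure D4:**
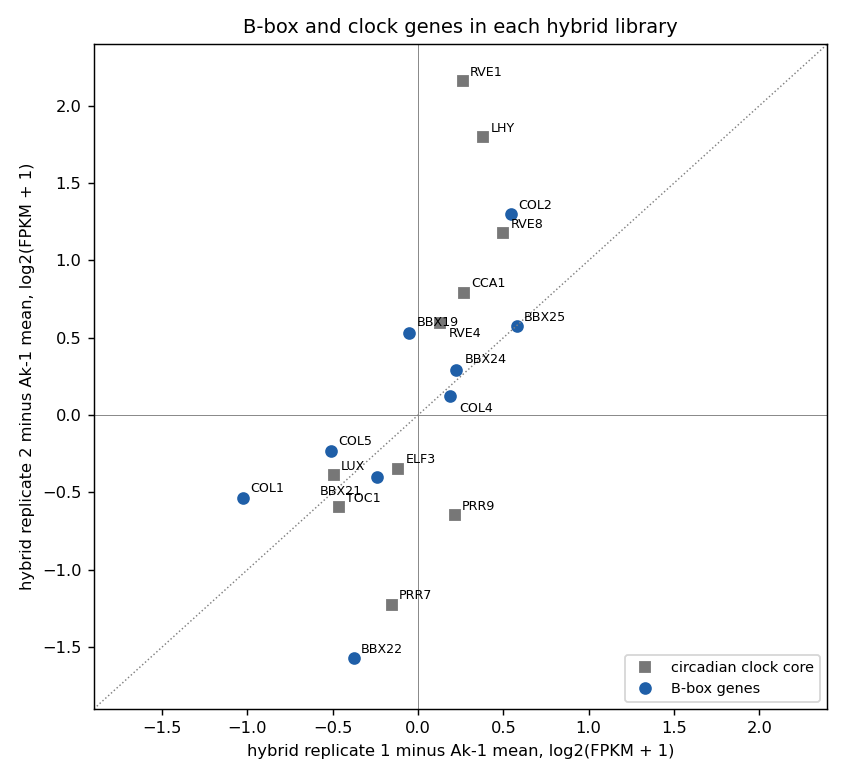
Log2(FPKM + 1) of hybrid replicate 1 (x axis) and hybrid replicate 2 (y axis), each minus the Ak-1 mean, for the 9 tested B-box genes (circles) and 10 clock genes (squares). Points on the dotted line were equal in both hybrid libraries. BBX25, BBX24 and COL4 lie close to it, while RVE1, LHY, COL2, PRR7 and BBX22 lie away from it.

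Among the 22 other B-box genes, 15 were tested, 1 was lower in the hybrid, 0 were higher and 14 were not called. The 2.51% of all tested loci called lower is the background for it. BBX17, which has a B-box and a CCT domain, had 17.92 and 14.10 FPKM in Ak-1 against 4.10 and 3.94 FPKM in the hybrid. The Ak-1 mean of BBX17 was 3.98 times its hybrid mean. Its log2 difference was −1.75 (SE 0.16, 95% interval −2.17 to −1.34, limma adjusted p = 0.0106). Both hybrid values lay far below both Ak-1 values. The call on BBX17 was lost without either Ak-1 library, where just the hybrid libraries give the spread. With a single hybrid library, where just the Ak-1 pair gives it, the limma adjusted p was 0.0280 and 0.0427.

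BBX16, also called COL7, had 81.44 and 98.85 FPKM in Ak-1 against 172.21 and 226.15 FPKM in the hybrid, just outside the threshold (log2 difference 1.13, limma adjusted p = 0.0510). Median-of-ratios scaling and quantile normalization moved it to 0.0483 and 0.0405. The microprotein genes BBX30 and BBX31, whose short products tie CO to the co-repressor TOPLESS, had higher values in both hybrid libraries. BBX31 had 6.03 and 6.68 FPKM in Ak-1 against 12.24 and 18.36 FPKM in the hybrid (limma adjusted p = 0.0633). BBX30 had 19.13 and 25.84 FPKM in Ak-1 against 30.82 and 47.52 FPKM in the hybrid (limma adjusted p = 0.203). BBX16, BBX30 and BBX31 were named after their values were seen. The groups did not overlap for 13 of the 15 tested genes, 8 higher and 5 lower, against 53.1% of all tested loci (20.5% higher and 32.6% lower). The median log2 difference was 0.27, and −0.06 over all tested loci.

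**Figure D5:**
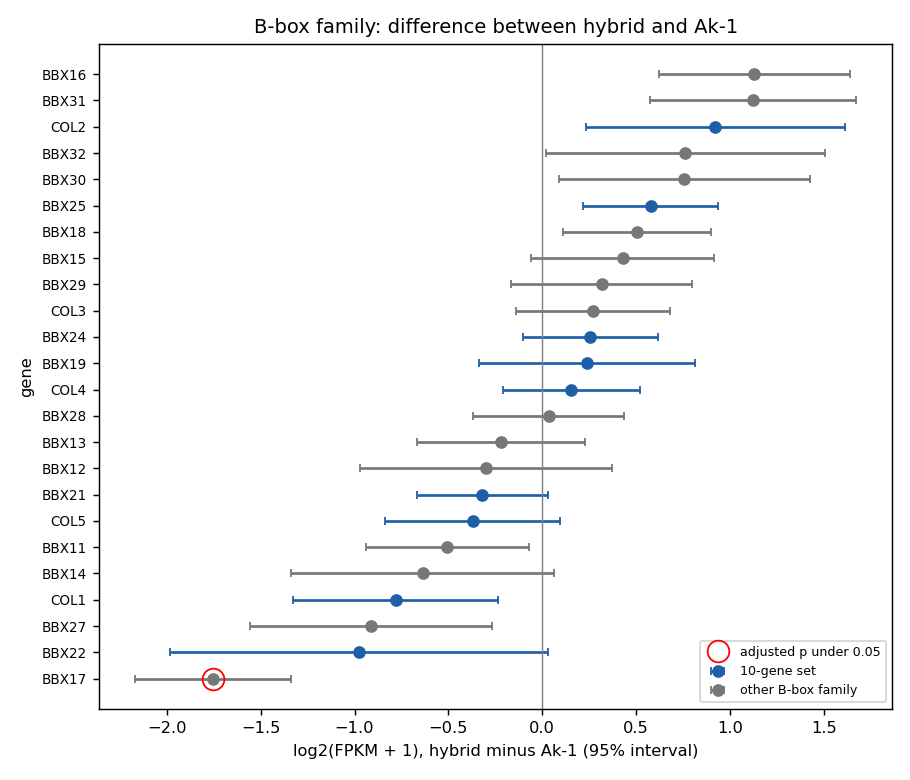
Log2(FPKM + 1) difference, hybrid minus Ak-1, with 95% interval for the 24 tested B-box genes, the 9 tested members in blue and 15 other family genes in grey. A red ring marks BBX17, the 1 gene with an adjusted p under 0.05, at −1.75.

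Photoreceptors and the COP1-HY5 module had 22 tested genes, of which 1 was higher, 0 were lower and 21 were not called, against 1.62% of all tested loci called higher and 2.51% lower. The median log2 difference was 0.04. PHYD, a red-light receptor related to PHYB, was listed at 0.21 and 0.19 FPKM in Ak-1 against 1.67 and 2.59 FPKM in the hybrid. Its log2 difference was 1.37 (SE 0.22, limma adjusted p = 0.0401). Its level stayed low, and the call was lost with no filter on low values, with replicate number as a block and without either Ak-1 library. COP1 had 23.13 and 20.57 FPKM in Ak-1 against 22.57 and 26.35 FPKM in the hybrid (limma adjusted p = 0.636), so its groups overlapped.

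Of 22 regulators, partners and targets of CO, 19 were tested and none was called by limma, against 4.13% of all tested loci. An unadjusted p under 0.05 was found for 6 of the 19, against 20.2% of all tested loci. The smallest limma adjusted p, 0.0565, was that of CDF5, a DOF repressor of CO transcription, which had 0.90 and 1.18 FPKM in Ak-1 against 3.06 and 4.87 FPKM in the hybrid. The non-coding locus AT1G69572 lies opposite 56.7% of CDF5 and had 5.59 and 5.59 FPKM in Ak-1 against 1.97 and 2.46 FPKM in the hybrid. The sums of FPKM times spliced length over CDF5 and AT1G69572 were 8.19 and 8.73 in Ak-1 against 8.18 and 12.2 in the hybrid, so the groups overlapped. GI, the clock-linked activator of CO, had 6.08 and 5.98 FPKM in Ak-1 against 4.84 and 1.78 FPKM in the hybrid (limma adjusted p = 0.298), again with its lowest value in hybrid replicate 2.

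Of 11 genes that HY5 and B-box proteins are known to act on, 8 were tested, 1 was higher, 0 were lower and 7 were not called, against 1.62% of all tested loci called higher and 2.51% lower. ELIP1, for a chlorophyll-binding protein made under strong light, had 10.83 and 10.62 FPKM in Ak-1 against 22.61 and 29.05 FPKM in the hybrid. Its log2 difference was 1.18 (SE 0.17, limma adjusted p = 0.0286). Its call was lost without hybrid replicate 2, without either Ak-1 library and with no filter on low values. Its relative ELIP2 had 123.86 and 50.86 FPKM in Ak-1 against 29.38 and 66.64 FPKM in the hybrid, so the groups overlapped. CHS, the first enzyme of flavonoid synthesis, had 25.84 and 13.62 FPKM in Ak-1 against 20.58 and 35.53 FPKM in the hybrid, with the same overlap. The list median was −0.03.

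The phloem, where CO acts, showed no called marker among the 4 tested, against 4.13% of all tested loci. The groups did not overlap for 3 of these markers, all higher, against 53.1% of all tested loci (20.5% higher and 32.6% lower). SUC2, the sucrose transporter of companion cells, had 144.05 and 167.90 FPKM in Ak-1 against 196.91 and 197.66 FPKM in the hybrid (limma adjusted p = 0.295). The 4 phloem markers summed to 287 and 314 FPKM in Ak-1 and to 418 and 380 FPKM in the hybrid. The part of phloem content in the members' values was not tested.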

How the data were processed

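Leaf RNA was purified on RNeasy columns and made into Illumina TruSeq V2 libraries, per the labels' protocols. The deposited files give FPKM per locus, which the authors rounded to 2 decimals. Cufflinks 2.0.2, TopHat2 2.0.8b, TopHat and edgeR 3.12.0 are named, with the build TAIR10, per the submitters' processing notes. What each tool did, and its handling of reads with several matches, are not given in the sources used here. No count model was run, because FPKM are normalized values. Groups and replicate numbers came from the sample titles.

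FPKM were used as deposited. Loci whose mean over the 4 libraries reached 1 FPKM were fitted by limma 3.58.1 under R 4.3.3 after log2(FPKM + 1) transformation (lmFit, eBayes with trend, no covariate, two-sided). The scale understates changes of low genes. The fit had 2 residual and 3.18 prior degrees of freedom. Intervals are not adjusted for the number of loci. Members and the 5 further lists were chosen with earlier results of these data known. Named genes were the 10 members and, per list, up to 3 called genes or, with none called, the one with the smallest adjusted p. Other names were chosen after values were seen. Names, overlaps and transcript lengths came from RefSeq TAIR10.1, which matched 31416 of the 34133 loci. Its coordinates are not printed, since the files use TAIR10. Exact stretches of 50 bases were compared between its transcripts. The alternatives were pseudocount, filter, scaling, replicate block and each library left out, with the filter kept over all 4 libraries. For COL1 the sum with AT5G15845 was a further alternative.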

Additional observations from a re-analysis of the deposited data

How the results depend on the processing

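Of 90 alternative values of the 9 tested members, 87 kept their direction and their side of the threshold. The 90 include the sum of COL1 and AT5G15845, which is a different quantity from COL1 alone. As no member was called in the main fit, keeping the side means staying uncalled. Without either Ak-1 library hardly any locus was called, so staying uncalled there says little. BBX19 reversed to −0.050 without hybrid replicate 2 (0.53 without hybrid replicate 1), and COL2 and BBX22 were called without hybrid replicate 1; the cause was not tested. Leaving out 1 library at a time, 0 to 1 members were called higher and 0 to 1 lower, 3 to 560 loci higher and 1 to 751 lower. Over the same fits 0 to 5 of the other B-box genes were called, 0 to 1 of the photoreceptor and COP1-HY5 genes, 0 to 5 of the CO regulators and targets, 0 to 1 of the HY5 targets and 0 to 4 of the clock genes. Of these fits, the one without hybrid replicate 1 called the most loci, and no list had more called genes in another of them. The counts are therefore not read as results about the lists. Without either Ak-1 library, the lone one is assumed to vary like the hybrid pair. Without a hybrid library, the lone one is assumed to vary like the Ak-1 pair.

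When a mean of 5 FPKM was required, 92 loci were higher, 206 lower and 0 photoreceptor genes were called. With no filter, 173 loci were lower and 0 photoreceptor genes and 0 HY5 targets were called. Median-of-ratios scaling called 2 of 15 other B-box genes, while 267 of all 15905 loci were called higher and 337 lower. Quantile normalization called 3 of 15 other B-box genes, 2 of 22 photoreceptor genes and 1 of 19 CO regulators. It called 311 of all 15905 loci higher and 354 lower. The replicate block gave 200 loci higher, 365 lower and 0 members called, with 0 photoreceptor genes in place of 1, as PHYD lost its call. The deviations of same-numbered libraries correlated at −0.14 across loci, so the numbers were not taken to pair the samples. The crossed pairing, chosen after seeing the data, gave 262 higher and 439 lower. A mean under 1 FPKM kept CO out of the test, and the depth of these libraries limits what can be said of it.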

Other observations

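The 7 B-box genes outside the 10 members that stayed under a mean of 1 FPKM were not tested. BBX10, BBX23 and BBX26 were listed at 0 in all 4 libraries. BBX20, a B-box factor of brassinosteroid and light signalling, had 0.66 and 0.48 FPKM in Ak-1 against 0.04 and 0.15 FPKM in the hybrid. COL9, a repressor of CO, had 0.31 and 0.45 FPKM in Ak-1 against 0.16 and 0.75 FPKM in the hybrid. BBX8 had 0.86 and 0.90 FPKM in Ak-1 against 0.67 and 1.01 FPKM in the hybrid, and BBX9 had 0.12 and 0.05 FPKM in Ak-1 and was listed at 0 in the hybrid.

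SOC1, a floral integrator downstream of FT and FLC, had 49.23 and 56.19 FPKM in Ak-1, 49.64 FPKM in hybrid replicate 1 and 3.49 FPKM in hybrid replicate 2, the library with the high FLC value. Of the B-box members, BBX25, BBX24 and COL4 had nearly equal values in the hybrid libraries, with replicate 2 at 0.999, 1.05 and 0.956 times replicate 1. BBX22 was at 0.322 times and COL2 at 1.69 times.

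AT5G15845 opposite COL1 and AT1G69572 opposite CDF5 are both non-coding loci whose log2 differences had the opposite sign to those of the genes they overlap. Libraries that mark strand would be needed to divide these reads.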
